A study of Mus musculus with 8 samples.

Results

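The 9 acyl-CoA thioesterase genes Acot1, Acot2, Acot3, Acot4, Acot7, Acot8, Acot9, Acot12 and Acot13 were followed in mouse liver. They were found by symbol among the 14506 genes of the deposited table, and all 9 passed the filter on low values. Acot3 was taken because its level was higher in the livers of mutant mice, and the other 8 because they belong to the same gene family. The genotype difference of Acot3 is therefore a description and carries no test. The livers came from 8 mice, 4 of them wild type (Rragc +/+) and 4 heterozygous for a point mutation (Rragc S74N/+). Rragc encodes RagC, a small GTPase that relays nutrient signals to the growth-controlling kinase complex mTORC1, and the mutant allele was carried in every cell of the animal. Of the Rragc +/+ mice, 3 were 3 months old and 1 was 2.5 months old. Of the Rragc S74N/+ mice, 2 were 3 months old, 1 was 2.5 months old and 1 was 2 months old, so the only 2-month-old liver was mutant. The labels give whole liver tissue and do not give the sex of the mice.

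Fatty acids are linked to coenzyme A before they are oxidised, stored or built into other lipids. Acyl-CoA thioesterases cut that link and release the free fatty acid and coenzyme A, and so set the balance between the bound and the free form in the cytosol, the mitochondria and the peroxisomes. The enzymes fall into 2 unrelated protein families. The type I genes form a tandem cluster, and several of them are known targets of PPARA, the nuclear receptor that switches on fatty acid oxidation in the fasted liver. The type II genes are scattered over the genome and share a different protein fold.

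Libraries were made from the 3′ ends of messenger RNAs, so a transcript gives reads by its copies and not by its length. Levels of different genes can then be set side by side where their reads can be told apart from those of other genes. The unit throughout is the normalized read count, which is reads divided by a size factor for each liver. Between 4313076 and 6632108 reads per liver lay in listed genes. All 10 hepatocyte markers were detected, with a mean log2 value of 13.7 to 14.4 in Rragc +/+ and 14.0 to 14.7 in Rragc S74N/+ livers. In tissue of mixed cells, fewer cells of a type and less RNA per cell cannot be told apart.

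The type I genes lie on chromosome 12 of GRCm38, all on the forward strand, within a span of 123.5 kb. Acot2 runs from 83987861 to 83993873, Acot1 from 84009490 to 84018371, Acot4 from 84038379 to 84048601 and Acot3 from 84052144 to 84060402. Acot5 follows Acot3 and was not among the listed genes, and Acot6 closes the cluster. The other members stand alone. Chromosome 13 carries Acot13 (24817948 to 24831540, reverse strand) and Acot12 (91741512 to 91786148, forward strand). Acot8 is on the reverse strand of chromosome 2, between 164792765 and 164804882. On the forward strand are Acot7, between 152178134 and 152271855 of chromosome 4, and Acot9, between 155262443 and 155297654 of the X chromosome.

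The promoters of the 4 clustered members are shown because these genes sit side by side and yet differed in level. Each is the 250 bases before the RefSeq start site on GRCm38.p6, 5′ to 3′ on the forward strand, with matches to the searched motifs in capitals. The windows are chr12:83987611-83987860 for Acot2, chr12:84009252-84009501 for Acot1, chr12:84038129-84038378 for Acot4 and chr12:84051894-84052143 for Acot3.
Acot2: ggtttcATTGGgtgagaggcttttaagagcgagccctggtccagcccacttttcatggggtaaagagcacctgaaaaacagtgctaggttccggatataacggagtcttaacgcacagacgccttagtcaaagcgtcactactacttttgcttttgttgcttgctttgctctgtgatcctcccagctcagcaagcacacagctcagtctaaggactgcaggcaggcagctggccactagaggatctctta
Acot1: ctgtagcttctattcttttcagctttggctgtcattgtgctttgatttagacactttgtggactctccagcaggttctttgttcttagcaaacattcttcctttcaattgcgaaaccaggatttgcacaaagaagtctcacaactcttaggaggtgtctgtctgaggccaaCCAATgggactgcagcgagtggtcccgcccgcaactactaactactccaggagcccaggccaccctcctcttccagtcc
Acot4: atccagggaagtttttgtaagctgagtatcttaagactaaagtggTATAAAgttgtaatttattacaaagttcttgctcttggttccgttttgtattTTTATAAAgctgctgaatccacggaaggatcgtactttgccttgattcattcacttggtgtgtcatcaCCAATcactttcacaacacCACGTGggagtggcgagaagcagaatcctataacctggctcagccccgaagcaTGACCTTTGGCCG
Acot3: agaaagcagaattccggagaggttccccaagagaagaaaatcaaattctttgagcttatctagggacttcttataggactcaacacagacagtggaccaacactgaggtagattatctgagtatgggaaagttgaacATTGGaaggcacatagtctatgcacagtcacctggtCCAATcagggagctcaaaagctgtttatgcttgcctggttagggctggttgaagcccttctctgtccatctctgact

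Motifs were searched on both strands of the RefSeq windows of 300 bases, 250 before and 50 after each start site. Of the members, 8 had a window, and Acot3 had 2 overlapping ones. The direct repeat bound by PPARA with its partner RXR, which is AGGTCA followed after 1 base by AGGTCA again, had no exact match in a member window, against 0.0396% of the 32851 windows. With up to 2 mismatches it matched in 3.86% of all windows and in those of Acot4 and Acot12. The Acot4 match, TGACCTTTGGCCG on the reverse strand, ends at the last base before the start site. Acot4 also held the E-box CACGTG at 66 bases before the start, a motif found in 7.15% of windows. It held TATAAA, found in 13.6% of windows, at 3 places, 2 of which overlap on opposite strands and print as a single run of capitals, and the same letters were in the window of Acot9. The short motif CCAAT was in 37.4% of all windows and in those of Acot1, Acot2, Acot3, Acot4, Acot8 and Acot9. TTANGTAA, the D-box of the clock output factors, was in 2.32% of windows and in that of Acot9. The CLEAR element of lysosomal genes was in 0.326% of windows and matched no member. These matches are letters in a window and no measure of binding.

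Because the clustered genes are close relatives, the reads of each could fall on another. Over their whole transcripts, pairs from Acot1 to Acot6 were identical at 67.9% to 82.5% of aligned bases. Over the last 500 bases, where reads of this kind of library start, the alignment left overhangs free and paired only 3 to 58 bases. Identical bases made up at most 7.6% of an end. That share is a different measure from the one for whole transcripts. With so few bases paired, it does not show how alike the ends are. Each gene was represented here by its longest protein-coding transcript, so ends of its other transcripts were not examined. Only exact matches were sought, whereas the alignment of the study allowed 3 mismatches. No stretch of 50 bases in the last 500 of Acot1 or Acot3 occurred exactly in another gene's transcript, and the shares were 0.443% for Acot2 and 1.11% for Acot4. Those of Acot2 were shared with Gm13016 and those of Acot4 with Art2b, neither of them a gene of the cluster. Acot9 stood apart, with 19.5% of such stretches shared with Acot10, which was not among the listed genes. A read-through transcript, Gm49366, overlaps Acot4 and Acot3 on the same strand, and an antisense gene, 4732463B04Rik, overlaps both on the other strand. Neither has an exon within the last 500 bases of Acot3 or Acot4. Reads were counted by strand, and the antisense gene was low. Its mean level was 5.74 ± 4.41 in wild-type and 6.08 ± 2.86 in mutant mice (SD, n = 4 each).

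Acot3 encodes a peroxisomal thioesterase that acts on long-chain acyl-CoAs. The 4 wild-type livers, here and below in the order of replicates 1 to 4, held 7.46, 5.61, 15.6 and 4.67 normalized read counts of Acot3. The 4 mutant livers held 25.7, 18.7, 53.5 and 86.5. Every mutant liver was above every wild-type liver, and the 2 highest values came from the mutant mice of 2 and 2.5 months. The means were 8.32 ± 4.96 and 46.1 ± 30.8 (SD, n = 4 each), a ratio of 5.54. On the log2 scale the fold change was 2.22 (SE 0.55). Acot3 was the only member whose genotypes did not overlap. Of the 11174 tested genes, 2.94% did not overlap, 1.3% with every Rragc S74N/+ liver above and 1.64% with every one below the Rragc +/+ livers. The choice of Acot3 used this contrast, so nothing is read from that count.

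The wild-type level of Acot3 rested on few reads. There were 8, 6, 11 and 5 reads in the Rragc +/+ livers and 28, 21, 48 and 106 in the Rragc S74N/+ livers. Age moved with the size of the difference. At 3 months the means were 9.54 in 3 Rragc +/+ and 22.2 in 2 Rragc S74N/+ livers, a ratio of 2.32. At 2.5 months the single livers gave 4.67 and 53.5, a ratio of 11.5. Without the 2-month-old liver the Rragc S74N/+ mean was 32.6 ± 18.4 (SD, n = 3) and the ratio 3.92. The mutant liver was higher at both ages that held both genotypes. Since the 2-month-old liver had no wild-type partner, its age and genotype cannot be told apart.

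**Figure D1:**
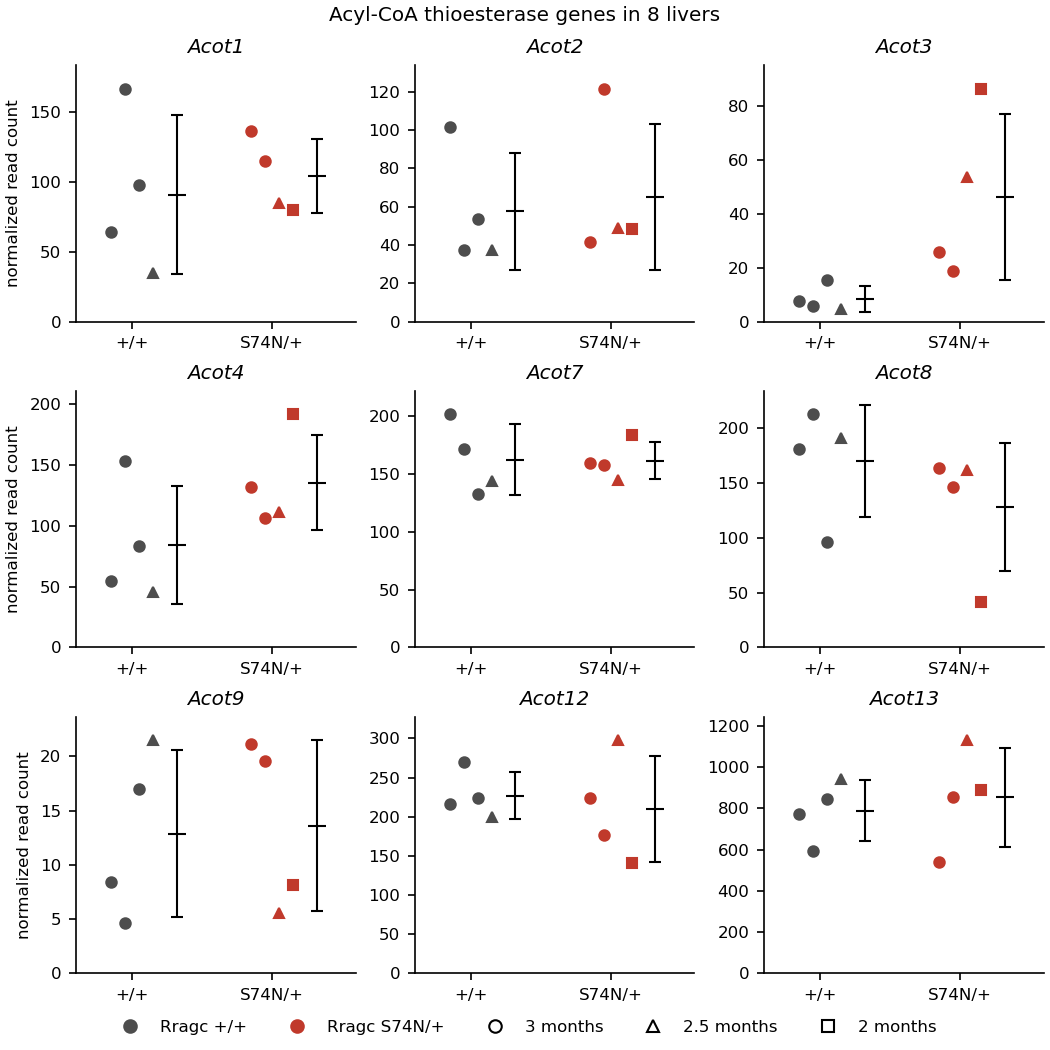
Normalized read counts of the 9 members in single livers of Rragc +/+ (grey) and Rragc S74N/+ (red) mice, with the mean and SD of each genotype beside the points and the age of the mouse as the marker shape. Each panel has its own linear axis from 0. In the panel of Acot3 the wild-type livers lie between 4.67 and 15.6 and the mutant livers between 18.7 and 86.5, while the genotypes overlap in the other 8 panels.

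Acot4, the direct neighbour of Acot3, encodes a peroxisomal thioesterase for succinyl-CoA and other dicarboxylic acyl-CoAs. Wild-type livers held 55.0, 153, 83.5 and 45.8 normalized read counts of Acot4, and mutant livers 132, 107, 111 and 192. One wild-type liver, replicate 2, lay above 3 of the mutant livers, and the other 3 lay below them all. The means were 84.4 ± 48.7 and 136 ± 39.1 (SD, n = 4 each), and the log2 fold change 0.80 (SE 0.36). At 3 months alone the means were 97.3 and 119, and at 2.5 months the values were 45.8 and 111.

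Acot1 encodes the cytosolic enzyme of the cluster for long-chain acyl-CoAs, known for its rise in fasted liver. Levels of Acot1 were 64.3, 166, 97.6 and 34.6 normalized read counts in wild-type livers and 136, 115, 84.7 and 79.9 in mutant ones. The wild-type livers held both the highest and the lowest value. The means were 90.7 ± 56.7 and 104 ± 26.3 (SD, n = 4 each), with a log2 fold change of 0.38 (SE 0.40).

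Acot2 encodes the mitochondrial enzyme of the cluster. In wild-type livers there were 102, 37.4, 53.8 and 37.4 normalized read counts of Acot2, and in mutant livers 41.3, 122, 49.0 and 48.1. A single liver of each genotype, replicate 1 and replicate 2, stood above the rest, and the others lay between 37.4 and 53.8. The means were 57.5 ± 30.4 and 65.1 ± 38.0 (SD, n = 4 each), and the log2 fold change was 0.16 (SE 0.41). Since reads of the clustered genes may have been shared in counting, no p-value is printed for the differences of Acot1, Acot2 and Acot4. Below they enter only the counts of members under a p threshold, which may not be independent of Acot3.

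**Figure D2:**
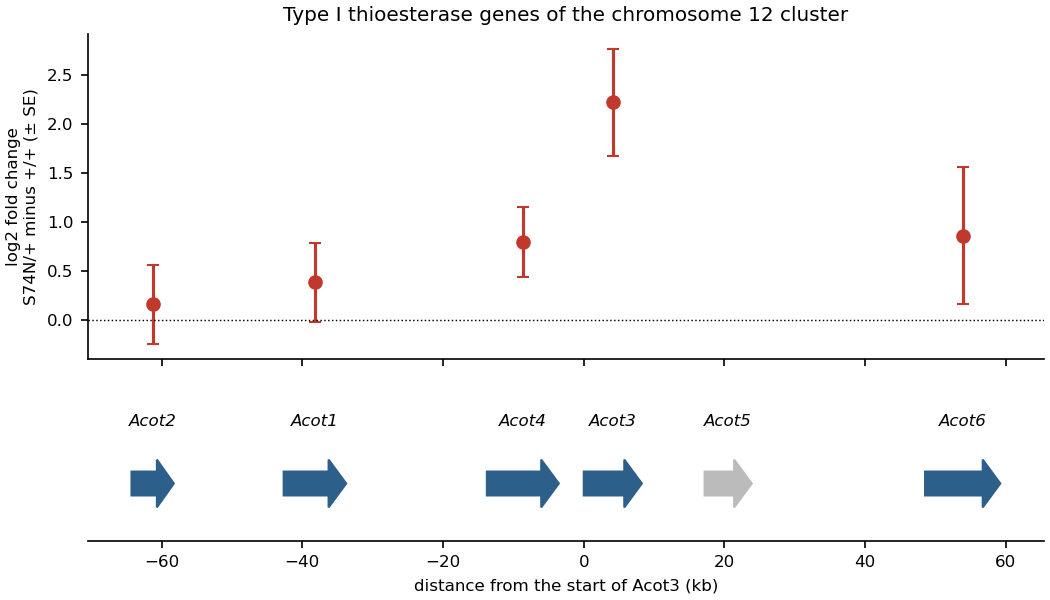
Log2 fold change (Rragc S74N/+ minus Rragc +/+, limma, ± SE, 4 livers each) of the cluster genes above their places on chromosome 12, as distance in kb from the start of Acot3. Acot5 (grey) was not among the listed genes. The estimate is 2.22 for Acot3, 0.80 for Acot4, 0.38 for Acot1 and 0.16 for Acot2, and 0.86 (SE 0.70) for Acot6, which rested on 2 to 17 reads per liver.

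Ratios of reads within a liver do not depend on its size factor. They were chosen after the values were seen and were not tested. The ratio of Acot4 to Acot1 reads was 0.855, 0.921, 0.855 and 1.32 in Rragc +/+ and 0.973, 0.930, 1.32 and 2.40 in Rragc S74N/+ livers. By age, the ratio was 0.855 to 0.973 in the 5 livers of 3 months. It was 1.32 in both livers of 2.5 months and 2.40 in the liver of 2 months. So few livers of 2.5 and 2 months cannot show the spread within an age. As a share of the reads of both genes, Acot4 took 57.0% in the wild-type liver of 2.5 months (exact 95% binomial interval 45.8 to 67.6), 56.8% in the mutant liver of that age (49.2 to 64.2) and 70.6% in the 2-month-old liver (65.4 to 75.4). In the 3-month-old livers it took 46.1% to 49.3%, with intervals that lay between 37.2 and 55.2. Those intervals overlapped the intervals of both livers of 2.5 months. Such intervals cover counting error only.

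The ratio of Acot3 to Acot1 reads was 0.116, 0.0337, 0.159 and 0.135 in Rragc +/+ and 0.189, 0.163, 0.632 and 1.08 in Rragc S74N/+ livers. Here the wild-type liver of 2.5 months lay with the older wild-type livers, and the mutant livers of 2.5 and 2 months lay above all others. Of the reads of Acot1 to Acot4 together, Acot3 made up between 1.55% and 6.21% in Rragc +/+ livers. In Rragc S74N/+ livers it made up 7.67% and 5.16% at 3 months, 17.9% at 2.5 months and 21.3% at 2 months. The shares of the 3-month-old livers of the 2 genotypes overlapped.

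**Figure D3:**
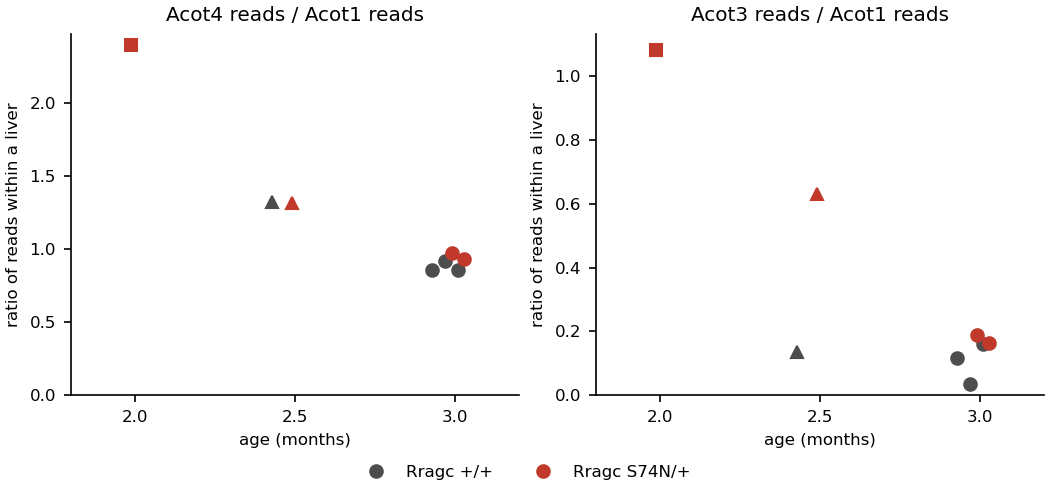
Ratio of Acot4 to Acot1 reads (left) and of Acot3 to Acot1 reads (right) in each liver against age in months, with Rragc +/+ in grey and Rragc S74N/+ in red. Both livers of 2.5 months lie at 1.32 on the left, whereas on the right they lie at 0.135 and 0.632.

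Acot8 encodes the main type II enzyme of peroxisomes, with a broad range of substrates. Acot8 stood at 181, 212, 96.2 and 191 normalized read counts in wild-type and at 163, 146, 162 and 41.6 in mutant livers. The 2-month-old liver was the lowest of all 8. Its log2 fold change was -0.53 with a 95% interval from -1.42 to 0.37, a limma adjusted p of 0.846 and an exact two-sided permutation p of 0.429. Without that liver the log2 fold change was -0.056. The summed level of the 3 peroxisomal members Acot3, Acot4 and Acot8 was 263 ± 75.7 in wild-type and 309.7 ± 25.9 in mutant livers (SD, n = 4 each), which overlapped.

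Acot12 encodes a cytosolic enzyme that hydrolyses acetyl-CoA, found mainly in liver. Wild-type livers had Acot12 levels of 216, 269, 224 and 199 normalized read counts, and mutant livers of 224, 177, 298 and 140. The mutant livers spread to both sides of the wild-type range. Genotypes differed by -0.16 on the log2 scale, with a 95% interval from -0.70 to 0.38 and a limma adjusted p of 0.895 (exact permutation p = 0.543).

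Acot7 encodes a cytosolic enzyme best known from brain. Levels were 201, 171, 133 and 144 normalized read counts in wild-type livers and 160, 157, 145 and 184 in mutant livers, so that the wild-type range enclosed the mutant one. The log2 fold change was 0.0048, and its 95% interval ran from -0.46 to 0.47. The limma adjusted p was 0.997 (exact permutation p = 0.943).

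Acot13 encodes a small thioesterase of the hotdog fold, also called Them2, which associates with mitochondria. Wild-type livers contained 775, 593, 845 and 944 normalized read counts of Acot13 and mutant livers 542, 853, 1130 and 888. It was the most abundant member in every liver, and its genotypes overlapped widely. Genotypes differed by 0.085 on the log2 scale, with a 95% interval from -0.44 to 0.61 and a limma adjusted p of 0.945 (exact permutation p = 0.743).

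Acot9 encodes a mitochondrial enzyme and gave few reads. Of the stretches of 50 bases in its last 500, 19.5% were shared with Acot10, so its level may be undercounted. Normalized read counts were 8.39, 4.68, 17.0 and 21.5 in wild-type livers and 21.1, 19.6, 5.57 and 8.16 in mutant livers, from 5 to 23 reads. High and low livers occurred in both genotypes. Its log2 fold change was 0.086, with a 95% interval from -1.26 to 1.43 and a limma adjusted p of 0.981 (exact permutation p = 0.83).

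Of the 8 members besides Acot3, 0 passed an adjusted p of 0.05 with limma, edgeR or DESeq2, beside 0.00895% of all tested genes called by limma, 0.00895% by edgeR and 0.0895% by DESeq2. At an unadjusted limma p under 0.05 there were 0 of the 5 members outside the cluster. Among the other 3, whose reads may be shared with Acot3, there was 1, Acot4, where 5.17% of all tested genes passed in either direction and 2.37% higher. That count fell to 0 without the trend, with age as a term, in 3-month-old mice alone, with edgeR and with DESeq2. It also fell to 0 in 5 of 8 fits that left out a liver, which were Rragc +/+ replicates 1, 3 and 4 and Rragc S74N/+ replicates 1 and 4. The 5 members outside the cluster were tested over 70 labellings of the livers, for which the smallest possible exact two-sided p is 0.0286. Of the 8 members besides Acot3, 6 had a log2 fold change above 0, as had 51.3% of tested genes, and their median was 0.086, beside 0.01 over all tested genes.

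The order of mean levels in Rragc +/+ livers was Acot13, Acot12, Acot8, Acot7, Acot1, Acot4, Acot2, Acot9 and Acot3. The ranges of neighbours in this order overlapped except between Acot13 and Acot12 and between Acot2 and Acot9. In Rragc S74N/+ livers the order was Acot13, Acot12, Acot7, Acot4, Acot8, Acot1, Acot2, Acot3 and Acot9, and neighbours were separated only at Acot13 and Acot12. By its mean, Acot3 was thus the last of the 9 in wild-type livers and the last but one in mutant livers. Its place varied between mutant livers, and Acot2 was above it in 2 of the 4. In the 2-month-old liver Acot3 (86.5) was above Acot1 (79.9), Acot2 (48.1), Acot8 (41.6) and Acot9 (8.16). The 9 members summed to 1602 ± 25.5 in wild-type and 1716 ± 245 in mutant mice (SD, n = 4 each), and Acot13 alone made up 36.8% to 58.2% of the sum in a liver. The 4 clustered members summed to 241 ± 98.6 and 350 ± 45.3, and these genotypes overlapped.

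Genes whose levels ran most like those of the clustered members were ranked by Pearson correlation of log2 values over the 8 livers, which share genotype, age and any difference in state between animals. These are descriptions of 8 points, the first picked from 11173 genes. For Acot4 the first was Cyp4a14 (r = 0.97), a fatty acid hydroxylase and target of PPARA, followed by Cct6a, Hnrnpdl, Lbp and Babam1. With genotype means removed, Cyp4a14 was the second (r = 0.96), after Sntb1 and before Tatdn3, Carf and Cct6a. Cyp4a10, also followed here as a target of PPARA, correlated with Acot4 at 0.39, at rank 3073 of 11173 genes. With genotype means removed this was 0.38. The correlation of Cyp4a10 with Acot3 was 0.16, and 0.065 with genotype means removed. The normalized read counts of Cyp4a14 were 386, 1835, 765 and 130 in Rragc +/+ and 2291, 1515, 1328 and 3868 in Rragc S74N/+ livers. As with Acot4, the wild-type replicate 2 lay among the mutant livers and the 2-month-old liver was the highest.

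For Acot3 the most similar were Slc16a7 (r = 0.97), a monocarboxylate transporter, and Gpr4 (r = 0.95), followed by Fbxl7, Tab2, Cpm, Tcf24, Mthfsl, Ttc39b, Tanc2 and Cox17 (r = 0.90 for the last). With genotype means removed they were Sf3a3, Nkap, Abat, Pcsk5 and Slc2a1, none of which was in the first list. Acot3 itself correlated with Acot4 at 0.65, with Cyp4a14 at 0.71, with Acot1 at 0.20, with Acot2 at -0.0052 and with Acot8 at -0.71. These values include the genotype contrast for which Acot3 was chosen. With genotype means removed they were 0.33 for Acot4, 0.34 for Cyp4a14, -0.092 for Acot1, -0.21 for Acot2 and -0.79 for Acot8. In each genotype the liver with the highest Acot3 had the lowest Acot8. These were Rragc +/+ replicate 3 (15.6 and 96.2) and the 2-month-old liver (86.5 and 41.6). The other Rragc S74N/+ livers held Acot8 at 146 to 163. No correlation was taken without these livers. For Acot1 the first were Arl4a (r = 0.98), Nanp, Phf21a, Prune1 and Dnajc16, and with genotype means removed Nanp, Arl4a, Dnajc16, Cyp2c37 and Pllp. Acot1 correlated with Acot4 at 0.74. For Acot2 the first were Cd52 (r = 0.93), Lgals9, Coro1a, Ftl1-ps1 and Rnf111, of which Cd52 and Coro1a are known from leukocytes, and with genotype means removed 1600020E01Rik, Coro1a, Paip2b, Gm23766 and Psme1. Acot2 correlated with Acot1 at 0.013 and with Acot4 at -0.23. Among the 4 neighbours in the cluster the correlations thus lay between -0.23 and 0.74, and between -0.39 and 0.74 with genotype means removed.

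The members share substrates and control with other genes of acyl-CoA metabolism, which were followed in 7 lists of 141 genes. Of these, 125 were in the table and 118 were tested, and 0 passed the adjusted threshold with limma, edgeR or DESeq2. At an unadjusted limma p under 0.05 there were 4 higher and 3 lower, 5.93% of them, beside 5.17% of all tested genes (2.37% higher and 2.8% lower). The 7 became 29 without Rragc S74N/+ replicate 3 and 23 with array weights, 13 without Rragc +/+ replicate 3, 11 in 3-month-old mice alone, with edgeR and with DESeq2, 4 without the trend, without Rragc +/+ replicate 4 or with a minimum mean of 50, and 3 with age as a term, without Rragc +/+ replicate 1 or without the 2-month-old liver. Over all tested genes the count moved too, from 578 of 11174. It became 1682 of 11182 without Rragc S74N/+ replicate 3, where 116 pathway genes were tested, and 1237 with array weights. It was 757 without Rragc +/+ replicate 3, 640 in 3-month-old mice alone, 618 with edgeR and 675 with DESeq2. Lower counts were 435 without Rragc +/+ replicate 4, 415 with age as a term, 334 without Rragc +/+ replicate 1 and 312 without the 2-month-old liver. The median log2 fold change of the pathway genes was -0.06, beside 0.01 over all tested genes, and 52 of the 118 were above 0. In what follows the genes with the smallest p of a list were chosen by their values, and none had an adjusted p below 0.846.

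Among the other thioesterases and related hydrolases, 9 of 14 were tested and 0 reached an unadjusted p under 0.05. The most abundant were Baat, which joins bile acids to amino acids, at a log2 fold change of -0.20, and Lypla2, a protein depalmitoylase, at -0.05. The smallest p belonged to Them4 at -0.47 and Ppt2 at 0.57. Of the acyl-CoA synthetases, which make the substrates of the members, 15 of 22 were tested and 1 was higher at an unadjusted p under 0.05. Acsl1 and Slc27a5, the most abundant, had log2 fold changes of -0.17 and -0.15, while Acss3 was at 1.32 and Acsl4 at 0.69.

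All 23 genes of peroxisomal acyl-CoA metabolism were tested, the compartment of Acot3, Acot4 and Acot8, with 1 higher and 1 lower at an unadjusted p under 0.05 and a median log2 fold change of 0.02. The thiolase Acaa1b and the phytanoyl-CoA hydroxylase Phyh were the most abundant, at -0.71 and 0.13. Crat, a carnitine acetyltransferase, was at -0.82, and Abcd2, a peroxisomal importer of fatty acyl-CoA, at 1.48. Of the genes of mitochondrial beta-oxidation, the carnitine shuttle and ketogenesis, 20 of 22 were tested with 0 at an unadjusted p under 0.05. The most abundant were Acaa2 at -0.18 and Etfb at -0.26, and the smallest p belonged to Acads at -0.47 and Decr1 at -0.41.

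Of the other PPARA target genes, 17 of 23 were tested, with 1 higher and 2 lower at an unadjusted p under 0.05 and a median of -0.24. Cyp4a14 was at 1.99 (SE 0.62), whereas Vnn1, a pantetheinase, was at -1.12 and Plin2, a lipid droplet coat protein, at -0.89. Fabp1, the liver fatty acid binding protein and the most abundant, was at 0.19. In Rragc S74N/+ livers Plin2 held 2017, 3635, 4393 and 1002 normalized read counts, beside 3230 to 5184 in Rragc +/+ livers. Of the 17 tested genes, 6 had a log2 fold change above 0. The mean log2 values of the list overlapped between genotypes, at 7.57 to 8.42 and 7.42 to 8.42. The part of the receptor in these differences was not tested. The receptor Ppara was at -0.56 (SE 0.36). It stood at 1320, 1475, 1376 and 1773 normalized read counts in Rragc +/+ and at 716, 1179, 2263 and 525 in Rragc S74N/+ livers. It was the most abundant of 18 tested genes for PPARA, its partners and its co-regulators, ahead of the co-repressor Ncor1. The smallest p there belonged to Ppard at 0.99 and Rxra at -0.32, and 0 reached an unadjusted p under 0.05. Of the genes of CoA synthesis, CoA breakdown and acyl-CoA binding, 16 of 19 were tested and 1 was higher at an unadjusted p under 0.05. The acyl-CoA binding protein Dbi and the pantothenate kinase Pank1 were the most abundant, at -0.06 and 0.06. Slc25a42, a mitochondrial CoA carrier, was at 1.16 and Nudt19 at 0.40. In Rragc S74N/+ livers Slc25a42 held 88.1, 19.6, 21.2 and 58.7 normalized read counts, beside 10.3 to 25.5 in Rragc +/+ livers.

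**Figure D4:**
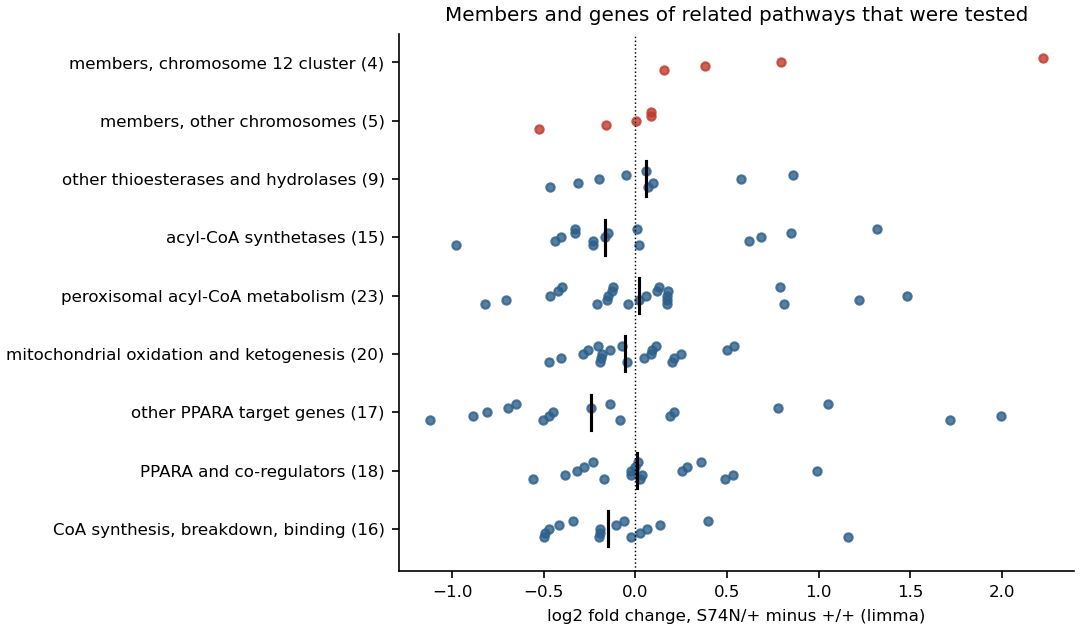
Log2 fold change (Rragc S74N/+ minus Rragc +/+, limma) of each tested gene, with the members in red, the genes of 7 related pathways in blue, the number of tested genes in brackets and a black line at the median of each pathway. Acot3 lies at 2.22 and the pathway medians between -0.24 and 0.06.

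Lists of genes that mark the state of the liver were set beside the level of Acot3, and their part in it was not tested. The 12 male-biased liver genes, all tested, had a mean log2 value of 11.87 to 11.98 in Rragc +/+ livers, 11.0 to 11.5 in the other 3 Rragc S74N/+ livers and 8.70 in the 2-month-old one, where Acot3 was highest. Among those 3 the lowest value was in replicate 2, where Acot3 was lowest. Of 12 female-biased genes 9 were not listed and 1, Cyp17a1, was tested, at 1.41 to 21.5 in Rragc +/+, 11.9 to 35.6 in the other 3 Rragc S74N/+ and 799 in the 2-month-old liver. That liver also had the lowest Acot8 and Acot12 and the highest Acot4. Fasting and glucocorticoid genes, 10 of 11 tested, had mean log2 values of 6.64 to 7.02 in Rragc +/+ livers. They stood at 8.20 in Rragc S74N/+ replicate 1 and 8.56 in the 2-month-old liver, but at 7.10 in replicate 2 and 6.55 in replicate 3, whose Acot3 was the second highest. Fed-state lipogenic genes overlapped between genotypes, at 8.26 to 9.54 and 8.59 to 9.37, as did clock genes near dawn (6.69 to 7.50 and 6.58 to 7.38) and near dusk (5.74 to 6.92 and 5.30 to 7.43).

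Markers of other cell types were listed as well, and their part in the differences of the members was not tested. Of 12 kidney tubule markers, 5 were not listed and 2, Gpx3 and Kap, were tested. The mean log2 value of this pair was 6.62 to 7.40 in Rragc +/+ and 4.17 to 5.71 in Rragc S74N/+ livers. The remaining kidney markers were listed but fell below the filter on low values and were not tested. Their mean levels in wild-type and mutant livers were 8.17 and 8.90 for Slc34a1, 2.46 and 2.52 for Slc12a1, and 1.17 and 1.56 for Slc12a3. Those of Lrp2 were 6.92 and 4.93, and those of Miox 12.6 and 1.79. Gpx3 was the only gene of the whole table past the limma threshold, which Kap missed (limma adjusted p = 0.846). The call of Gpx3 was lost without the trend, with age as a term, in 3-month-old mice alone and in 7 of 8 fits that left out a liver, all but that without Rragc S74N/+ replicate 3. Kupffer cell markers, all 10 tested, were at 7.416 to 7.567 in Rragc +/+ and 7.571 to 8.293 in Rragc S74N/+ livers. These scores do not overlap, but the nearest livers lay at 7.567 and 7.571. Of the 10 genes, 7 had a log2 fold change above 0, and the median was 0.17. The genotypes did not overlap in 1 of the 10, beside 2.94% of all tested genes. Lymphocyte markers rested on Igkc alone, at 5.53 to 6.31 and 6.77 to 7.40, which do not overlap either. The genotypes overlapped in the scores of stellate (7.05 to 7.32 and 7.17 to 7.77), sinusoidal endothelial (6.65 to 6.97 and 6.47 to 7.22) and bile duct cells (5.34 to 6.72 and 5.26 to 6.87). They also overlapped for neutrophils and monocytes (3.25 to 5.29 and 3.95 to 4.70), adipocytes (3.23 to 4.16 and 2.48 to 5.07, on Fabp4 alone) and pancreatic acinar cells (7.87 to 8.77 and 6.54 to 7.91, on Cela1 alone).

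**Figure D5:**
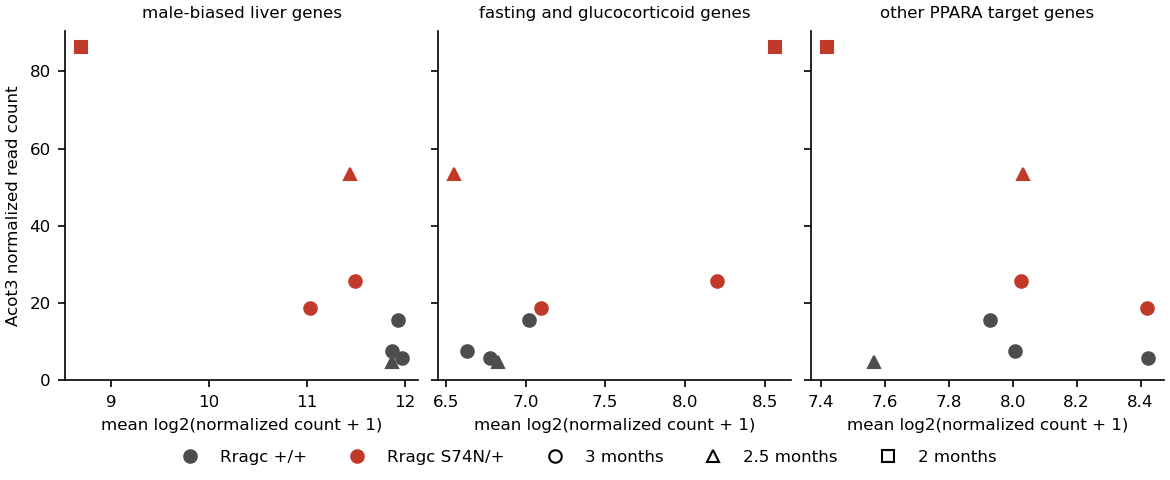
Normalized read count of Acot3 in each liver against the mean log2(normalized count + 1) of male-biased genes, of fasting and glucocorticoid genes and of other PPARA target genes, with genotype as colour and age as marker shape. The 2-month-old liver, with Acot3 at 86.5, lies at 8.70 for male-biased genes, at 8.56 for fasting genes and at 7.42, the lowest of the 8, for PPARA targets.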

How the data were processed

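RNA of 8 whole livers was sequenced with a stranded QuantSeq 3′ kit. Per the labels and the methods of the study, the authors used TopHat2 2.0.10, Bowtie 1.0.0 and SAMtools 0.1.19 to align reads to GRCm38, counted them by strand with HTSeq 0.6.1 on a GENCODE annotation, and scaled them by size factors. The deposited signal is this normalized read count for 14506 genes, each with at least 6 reads over the livers. All values (100%) were whole multiples of what 1 read is worth in a liver, within 0.001 of a whole number, which gave back the reads (4313076 to 6632108 per liver, size factors 0.707 to 1.23). Reads have no stated molecular identifiers and are not independent molecules.

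Genotypes and ages were taken from the labels, which give each library as a separate mouse, and no pair of libraries agreed within sampling noise (chi-square per degree of freedom 14.6 to 101 over 28 pairs). Differences were fitted with limma 3.58.1 in R 4.3.3 (empirical Bayes with trend, genotype as the only term) to log2(normalized count + 1). The 11174 genes whose mean reached 10 entered, and p-values were adjusted over all of them (Benjamini-Hochberg). The scale understates folds of low genes such as Acot3. Alternatives were pseudocounts of 0.1 and 5, a higher minimum mean (50) or none, 2 rescalings, array weights, a fit without trend, age added as a term, only the mice of 3 months, edgeR 4.0.16 and DESeq2 1.42.0 on the recovered reads, and leaving out each liver. The fit was tested on simulated data.

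The members and lists were chosen with earlier results of these data known. The text names the 9 members, of each pathway list the 2 most abundant tested genes and the 2 with the smallest limma p, and the 10 genes most like Acot3 with 5 more after genotype means were removed, and 5 of each kind for Acot1, Acot2 and Acot4. The 16 lists of liver state and cell type markers were scored as the mean log2 value of their tested genes. Other genes (Acot6, Cyp4a10 and the overlapping and marker genes named singly) were chosen after their values were seen. Positions and transcripts are from GENCODE M21 on GRCm38, which is not the release that the methods of the study name for counting these livers. Promoters are from RefSeq, and in Acot1 the RefSeq start lies a few bases inside the GENCODE gene.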

Additional observations from a re-analysis of the deposited data

Results flagged for a closer look

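In groups of 4 livers, a value was singled out when its gap to the nearest other liver was large beside the whole range of the group. Chance does this in about 1 in 20 groups, and 6 of 48 groups examined did so, where 2.4 would come by chance. Acot2 was at 121.8 normalized read counts in Rragc S74N/+ replicate 2 and between 41.3 and 49.0 in the other 3. Acot8 was at 41.6 in the 2-month-old liver, Rragc S74N/+ replicate 4, and between 146 and 163 in the other 3. The ratio of Acot4 to Acot1 reads was 1.32 in Rragc +/+ replicate 4, the 2.5-month-old liver, and 0.855 to 0.921 in the other 3. The mean log2 value of male-biased liver genes was 8.70 in the 2-month-old liver and 11.0 to 11.5 in the other Rragc S74N/+ livers. In Rragc S74N/+ replicate 3, clock genes near dawn were at 6.58 (the other 3 at 7.28 to 7.38) and sinusoidal endothelial markers at 6.47 (the other 3 at 7.20 to 7.22).

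The difference of Acot9 between genotypes pointed opposite ways at the ages that held both. It was -1.77 on the log2 scale at 2.5 months, with 1 liver of each genotype, and 1.11 at 3 months. This contrast of ages was not tested.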

How the results depend on the processing

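Few reads limit Acot3 in Rragc +/+ livers and Acot9 in all, a mean of at least 50 left no value for either, and 4 livers per genotype limit all differences. The log2 fold change of Acot3 was 1.85 to 2.56 when a liver was left out (lowest without the 2-month-old liver) and 1.23 in 3-month-old mice alone. Its other alternatives reached at most 2.52. That of Acot4 was 0.56 to 1.13 and 0.41 to 0.82. Without a liver, Acot1 ran from -0.0027 (without Rragc +/+ replicate 4) to 0.74 and Acot2 from -0.19 to 0.47. Members besides Acot3 and the other pathway genes past the threshold numbered 0 under every alternative run. All genes past it numbered 1, 0 without the trend, with age as a covariate and in 3-month-old mice alone, 10 with DESeq2, and 6 with DESeq2 without the filter, a setting added after seeing the data. They numbered 0 to 2 with a liver left out, 2 without Rragc S74N/+ replicate 3 and 0 in the other 7 fits. The cause was not tested.

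The direction of Acot7 turned to -0.0019 with upper-quartile rescaling, -0.076 with array weights, -0.0061 with age, -0.067 at 3 months, -0.0039 with edgeR, -0.0044 with DESeq2 and -0.011 with DESeq2 without the filter. That of Acot13 turned to -0.049 with age and -0.10 at 3 months. With a liver left out, Acot7 ran from -0.084 to 0.11, Acot9 from -0.28 to 0.41, Acot12 from -0.35 to 0.013, Acot13 from -0.065 to 0.29 and Acot8 from -0.78 to -0.056. Over the last 300 and 1000 bases, in place of 500, up to 24.3% and 22.6% of the bases of an end were identical to another cluster gene. The alignment paired 113 and 320 bases in those cases, so the share moved with how much was paired. Of the stretches of 50 bases in the last 1000, 8.41% of those of Acot2 were shared, with Acot1 and Gm13016, and 0% of those of Acot3. No paired analysis was possible because the numbers of the replicates were given in sample order and pair no mice.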
